A study of Mus musculus with 6 samples.

Results

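Basement membrane transcripts were followed in cultured mouse lung fibroblasts with and without DKK1, a secreted inhibitor of canonical Wnt signalling that acts through LRP5 and LRP6. The 10 genes described here are 5 laminin chain genes (Lama2, Lama4, Lamb1, Lamb2 and Lamc1), both nidogen genes (Nid1 and Nid2), a pair of collagen IV chain genes (Col4a1 and Col4a2) and the perlecan gene Hspg2. They were chosen by symbol as genes of basement membrane proteins, out of 45706 genes in the deposited table, and each symbol matched 1 Ensembl identifier. The cells were wildtype fibroblasts grown from collagenase-digested lungs in serum-containing medium and purified before use, by a step the labels do not describe. Treated cells (3 samples) were exposed for 24 hours to 30 ng/ml of recombinant mouse DKK1, and 3 samples carry the label control. Strain, age and sex of the mice, what the control medium contained, and whether the samples came from separate animals are not given in the sources used here, so p-values measure only the spread between these samples, which may be technical.

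A basement membrane is a thin sheet of extracellular matrix that underlies epithelia and endothelia and surrounds muscle and fat cells. Laminins are secreted as trimers of 1 alpha, 1 beta and 1 gamma chain, and their network carries the receptors' binding sites. Collagen IV forms a second, covalently cross-linked network, and nidogens and perlecan, a large heparan sulfate proteoglycan, link the networks to each other. In the lung, fibroblasts supply part of this matrix to the alveolar and vascular basement membranes.

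Col4a1 and Col4a2 lie head to head on mouse chromosome 8 and are transcribed in opposite directions from a shared promoter, and their levels moved together here, so the bases around their starts are shown. In the RefSeq promoter windows (build GRCm38.p6, 250 bases before to 50 after each start) the windows of these genes share 78 bases, chr8:11312777-11312854. Capitals mark the 22 bases, 11312805 to 11312826, that the annotated first exons of both genes cover on opposite strands.
Col4a2, plus strand: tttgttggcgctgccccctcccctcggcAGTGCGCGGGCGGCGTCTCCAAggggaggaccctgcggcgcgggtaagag
Col4a1, minus strand: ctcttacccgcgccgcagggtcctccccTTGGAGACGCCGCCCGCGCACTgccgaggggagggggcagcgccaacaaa
The shared stretch has a GC content of 73.1%. It holds 1 copy of the GC box GGGCGG, which lies in capitals above, and 0 copies of TATAAA, counting both strands; of all 32851 promoter windows of 300 bases, 35.7% hold the first motif and 13.6% the second.

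Library totals lay between 22565897 and 34727082 counts, and 14635 genes passed the filter on low counts, all 10 basement membrane genes among them. Their counts ranged from 2952 to 61255 per library, where counting error alone gives a coefficient of variation of 1.84% to 0.404%. Levels are given as CPM, counts scaled to the library total. Every gene was within the top part of the expressed genes: the lowest, Nid2, stood at percentile 89.9 of the tested genes by mean CPM, and Col4a1 at 99.8. Together the 10 genes took 0.797%, 0.753% and 0.740% of all counts in control replicates 1, 2 and 3 and 0.763%, 0.695% and 0.681% in DKK1 replicates 1, 2 and 3; the share was lower with DKK1 within each replicate number, and the groups overlapped.

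Compared per kilobase of the longest annotated transcript, collagen IV came first and the laminin alpha2 chain last. In control cells Col4a1 stood at 311.7 ± 29.0 CPM per kilobase and Col4a2 at 231.6 ± 19.7 (SD, n = 3). Nid1, the main nidogen of these cells, followed with 178.9 ± 8.20 CPM per kilobase, while Nid2 reached 26.3 ± 1.22 (SD, n = 3). Among the laminin chains, Lamb1 was at 108.4 ± 1.78, Lamc1 at 61.5 ± 1.64, Lama4 at 33.7 ± 1.35, Lamb2 at 27.3 ± 1.09 and Lama2 at 16.5 ± 0.798 CPM per kilobase (SD, n = 3), and Hspg2 was at 88.1 ± 7.37. The span from the lowest to the highest gene was 18.9-fold. Of neighbours in this order only Lamb2 and Nid2 overlapped between their control libraries; all other neighbours were separated in the 3 control libraries. The order in the middle depends on the length used: per mean coding transcript Lamb2 stood at 90.8 rather than 27.3 CPM per kilobase and moved from place 8 to 6, Lamc1 stood at 103.3 rather than 61.5 and moved from 6 to 5, Lamb1 stood at 160.3, Lama2 at 22.9, and Hspg2 moved from 5 to 7.

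**Figure D1:**
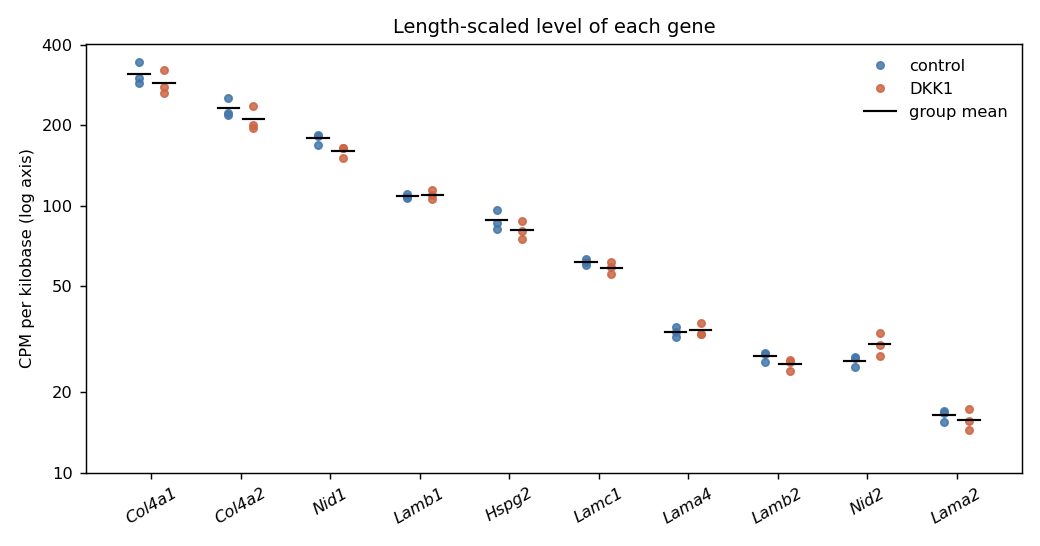
Length-scaled level of each gene (y, CPM per kilobase of the longest annotated transcript, log axis), 1 point per library, control in blue and DKK1 in orange, black lines for group means (n = 3). Col4a1 and Col4a2 are highest and Lama2 is lowest in both groups, and the groups lie close together for every gene.

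The question of the study was which transcripts of these cells DKK1 changes. With the samples treated as unpaired, 0 of the 10 genes passed an adjusted p of 0.05 (edgeR quasi-likelihood test, two-sided, Benjamini-Hochberg adjustment over all 14635 genes), where 0.895% of all tested genes did, 0.697% higher and 0.198% lower. DESeq2 and limma-voom without pairing also called 0 of them, and 2, Nid1 and Nid2, had an unadjusted edgeR p under 0.05. The labels give replicate numbers but state no pairing, so pairing was read from these same counts. Across genes, deviations from the group means correlated by 0.274, 0.230 and 0.405 between same-numbered samples of both groups. Between samples of unlike number they correlated by -0.283 to 0.075. With the number as a model term (a replicate block, the paired fit) 7 of the 10 passed: Nid1, Col4a1, Col4a2, Hspg2, Lamb2 and Lamc1 fell and Nid2 rose. In the paired fit 9.42% of all tested genes were called, 4.46% lower and 4.96% higher. The share was higher among abundant genes: of the 1481 genes at or above the mean CPM of Nid2, the lowest of the 10, 27.9% were called, 15.7% lower and 12.2% higher. With trends of GC content and transcript length removed from each library as well, 4 of the 10 passed (Nid1, Nid2, Col4a1 and Col4a2) beside 8.93% of all genes. The same 4 passed in DESeq2 with the replicate term, beside 3.65% of the genes it tested. The share among abundant genes was not computed for either fit. The sizes were small: in the paired fit log2 fold changes lay between -0.165 and 0.20, with a median of -0.086 against -0.001 over all tested genes. With the GC and length trends also removed the median was -0.029 against -0.006. These are bulk samples, so fewer cells of a type and less RNA per cell cannot be told apart.

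**Figure D2:**
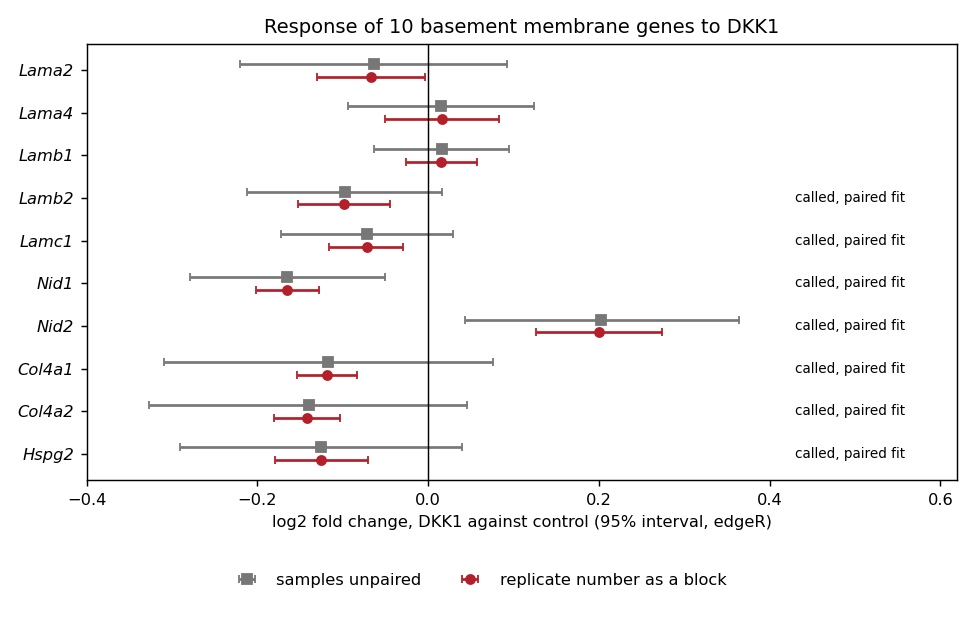
Log2 fold change of each gene, DKK1 against control (x), with its 95% interval from edgeR, without pairing (grey squares) and with the replicate number in the model (red circles). The estimates hardly move between the fits while the intervals narrow; 7 genes are called in the paired fit and 0 in the unpaired one.

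Both collagen IV chains were lower in the paired fit: Col4a1 fell by 7.87% and Col4a2 fell by 9.4%. Col4a1 (ENSMUSG00000031502, GRCm38 chr8:11198423-11312826, minus strand) encodes the alpha1 chain, of which the common collagen IV trimer holds a pair of copies. Control replicates 1, 2 and 3 held 2277, 1909.5 and 1999 CPM of it, and DKK1 replicates 1, 2 and 3 held 2137, 1745 and 1842 CPM. Replicate 1 was the highest in both groups and the groups overlapped, but each DKK1 sample was below the control of its own number. The log2 fold change was -0.118 (SE 0.017, 95% interval -0.154 to -0.083, edgeR adjusted p = 0.000358 with the block; without it -0.117, SE 0.084, adjusted p = 0.705). Leaving out 1 library moved the value without the block to between -0.208 (without DKK1 replicate 1) and -0.039 (without control replicate 1), and it was -0.06 without DKK1 replicate 2. Col4a2 (ENSMUSG00000031503, chr8:11312805-11449287, plus strand), the alpha2 chain of the same trimer, measured 1639.7, 1411 and 1429.6 CPM in control replicates 1, 2 and 3, and DKK1 replicates 1, 2 and 3 measured 1526, 1256.5 and 1297 CPM. The same library order as for Col4a1 is seen, with replicate 1 high and replicate 2 low in each group. Its log2 fold change without the block was -0.14 (adjusted p = 0.629). Leaving out 1 library moved this to between -0.233 (without DKK1 replicate 1) and -0.067 (without control replicate 1). With the block it was -0.142 (SE 0.018, 95% interval -0.181 to -0.103, adjusted p = 0.000148). With the GC and length trends also removed, the falls were -0.061 (adjusted p = 0.0408) for Col4a1 and -0.081 (adjusted p = 0.00719) for Col4a2, so over 1.5 times smaller; these genes stand at percentiles 88.7 and 96.4 of GC content among the tested genes, and the cause of the shift was not tested.

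The ratio of Col4a1 to Col4a2, per kilobase, was nearly the same in all libraries: 1.35, 1.32 and 1.36 in control and 1.37, 1.35 and 1.38 in DKK1 replicates 1, 2 and 3. Over the 6 libraries log2 CPM of these genes correlated with r = 0.987 (n = 6, a description; the points share the replicate numbers and the treatment). Col4a2 was the 4th most alike of 9223 genes with at least 10 CPM to Col4a1, after Ston1 (r = 0.991), Ppp1r14a (r = 0.991) and Cdk18 (r = 0.987). The genes most alike to Col4a2 were Synj1 (r = 0.994), Lats2 (r = 0.989) and Ston1 (r = 0.989), and Col4a1 ranked 6th.

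The nidogens moved in opposite directions in the paired fit. Nid1 (ENSMUSG00000005397, chr13:13437551-13512269), which encodes the glycoprotein that ties the laminin gamma1 chain to collagen IV, stood at 1111, 1125 and 1032 CPM in control replicates 1, 2 and 3. In DKK1 replicates 1, 2 and 3 it stood at 999.9, 1006 and 920.0 CPM, all below every control library. In the paired fit it fell by 10.8% (log2 fold change -0.165, SE 0.017, 95% interval -0.202 to -0.128, edgeR adjusted p = 2.73e-05), and the 3 pairs gave -0.158, -0.169 and -0.169. Without the block the estimate was the same (SE 0.05, unadjusted p = 0.00993, adjusted p = 0.248). Nid2 (ENSMUSG00000021806, chr14:19751265-19811787) encodes the second nidogen, which binds many of the same partners. Its level was 130.8, 121.2 and 132.1 CPM in control replicates 1, 2 and 3, and with DKK1 it was 163.5, 133.3 and 147.1 CPM, where the lowest DKK1 library, replicate 2, was close to the highest control library. Its paired log2 fold change was 0.20 (SE 0.034, 95% interval 0.126 to 0.274, adjusted p = 0.00181; without the block unadjusted p = 0.0189, adjusted p = 0.317). Without the block the value was 0.203, and leaving out 1 library moved that to between 0.124 and 0.271. The nidogens were the 2 of the 10 genes with no overlap between groups, and 16.5% of all tested genes had none.

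Within each library the nidogen balance was lower with DKK1. The ratio of Nid1 to Nid2 per kilobase was 6.80, 7.43 and 6.26 in control and 4.90, 6.04 and 5.00 in DKK1 replicates 1, 2 and 3, with no overlap between the groups. Nid2 shares 437 exonic bases with Rtraf, annotated on the opposite strand, and the strand setting of the counting is not given in the sources used here. Rtraf measured 78.7 ± 1.24 CPM without and 78.8 ± 1.18 CPM with DKK1 (SD, n = 3), with a difference of -0.002 on the log2 scale (paired SE 0.03, edgeR adjusted p = 0.983). Expected counts of Nid1 and Nid2 were not whole in all 6 libraries, so some of their reads were divided with other loci; those of the other 8 genes were whole.

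**Figure D3:**
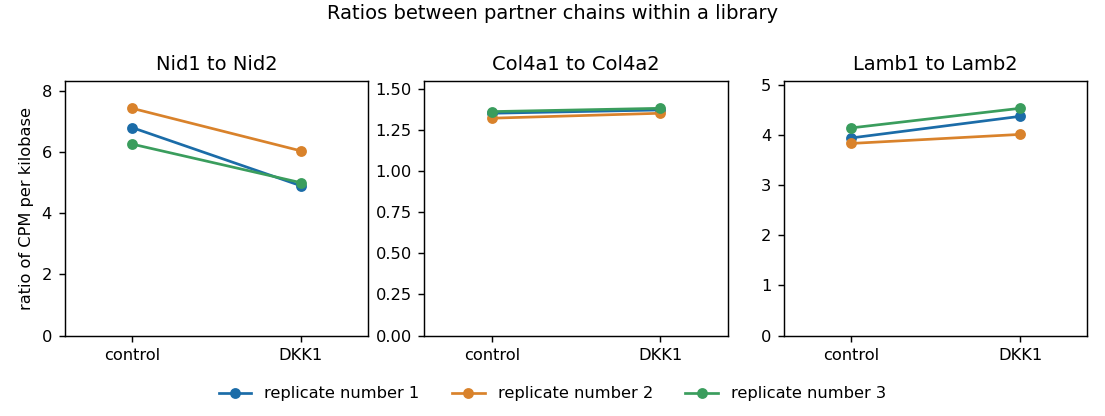
Ratio of CPM per kilobase between partner chains within each library (y, linear from 0), control and DKK1 joined by replicate number. The Nid1 to Nid2 ratio is lower with DKK1 in all 3 pairs, from 6.83 ± 0.587 to 5.31 ± 0.632 (SD, n = 3), the Col4a1 to Col4a2 ratio lies between 1.32 and 1.38, and the Lamb1 to Lamb2 ratio between 3.83 and 4.53. The last depends on the length used, since per mean coding transcript Lamb1 and Lamb2 stood at 160.3 and 90.8 CPM per kilobase in control.

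Among the 5 laminin chains Lamb2 and Lamc1 fell in the paired fit, by less than 0.1 on the log2 scale. Lamc1 (ENSMUSG00000026478, chr1:153218922-153332786), the gamma1 chain of most laminin trimers, measured 481.2, 468.4 and 456.3 CPM in control replicates 1, 2 and 3, and DKK1 replicates 1, 2 and 3 measured 467.8, 450.3 and 423.9 CPM. The groups overlapped and each pair was lower with DKK1, for a paired estimate of -0.072 on the log2 scale (SE 0.02, edgeR adjusted p = 0.0397 with the block and 0.648 without it). Lamb2 (ENSMUSG00000052911, chr9:108479736-108490530), the beta2 chain known from the kidney filter and the neuromuscular junction, measured 157.7, 157.0 and 146.7 CPM in control replicates 1, 2 and 3, against 146.9, 149.5 and 136.0 CPM with DKK1. Its log2 fold change was -0.099 (SE 0.025, adjusted p = 0.0227 with the block and 0.559 without it), and replicate 3 was the lowest library of each group. Neither call held with the GC and length trends also removed: Lamc1 had -0.033 (adjusted p = 0.419) and Lamb2 -0.045 (adjusted p = 0.393). Lamb2 lost the call when any 1 replicate number was left out (adjusted p = 0.0624, 0.128 and 0.0859 without numbers 1, 2 and 3), and Lamc1 without number 2 (adjusted p = 0.218) or 3 (adjusted p = 0.204). The paired log2 fold changes without numbers 1, 2 and 3 were -0.094, -0.11 and -0.092 for Lamb2. For Lamc1 they were -0.085, -0.077 and -0.056.

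Lamb1, Lama2 and Lama4 did not pass in either fit. Lamb1 (ENSMUSG00000002900, chr12:31265234-31329644), the beta1 chain, measured 637.9, 617.6 and 624.9 CPM in control replicates 1, 2 and 3, against 660.0, 615.6 and 632.6 CPM with DKK1. These values interleave, and the paired log2 fold change of 0.015 has a 95% interval of -0.026 to 0.057 (edgeR adjusted p = 0.719). Lama4 (ENSMUSG00000019846, chr10:38965515-39110188), the alpha4 chain of vascular and mesenchymal laminins, measured 203.5, 195.8 and 212.1 CPM in control replicates 1, 2 and 3, against 220.0, 199.5 and 200.4 CPM with DKK1. Number 3 was lower and numbers 1 and 2 were higher with DKK1, with a paired log2 fold change of 0.016 (95% interval -0.051 to 0.083, adjusted p = 0.84). Lama2 (ENSMUSG00000019899, chr10:26980036-27619758), the alpha2 chain best known from muscle, whose loss causes a congenital muscular dystrophy, measured 164.1, 161.6 and 149.7 CPM in control replicates 1, 2 and 3, against 166.5, 150.9 and 138.7 CPM with DKK1. Replicate 1 was slightly higher and replicates 2 and 3 were lower with DKK1, giving -0.067 (95% interval -0.13 to -0.004, unadjusted p = 0.0388, adjusted p = 0.206). Without replicate number 1 the paired fit gave -0.109 (adjusted p = 0.0188). With all samples and the GC and length trends also removed, Lama2 had -0.022 (adjusted p = 0.734). Per kilobase, the summed beta chains stood at 2.19, 2.19 and 2.24 times Lamc1 in control and 2.28, 2.25 and 2.40 times in DKK1 replicates 1, 2 and 3.

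Perlecan fell by 8.3% in the paired fit, by unequal steps in the 3 pairs. Hspg2 (ENSMUSG00000028763, chr4:137468769-137570630) measured 1163, 1366 and 1222 CPM in control replicates 1, 2 and 3, against 1139, 1242.5 and 1068 CPM with DKK1. The groups overlapped and replicate 2 was the highest library in both, unlike for collagen IV. The pair differences on the log2 scale were -0.035, -0.144 and -0.197. The paired log2 fold change was -0.125 (SE 0.025, 95% interval -0.179 to -0.071, edgeR adjusted p = 0.00583; without the block adjusted p = 0.625). With the GC and length trends also removed it was -0.024 (adjusted p = 0.629); Hspg2 stands at percentile 99.5 of transcript length and 97.0 of GC content among the tested genes. In the paired fit with 1 replicate number left out, Hspg2 had -0.17 without number 1 (adjusted p = 1.15e-14). It had -0.115 without number 2 (adjusted p = 0.133) and -0.09 without number 3 (adjusted p = 0.0686). Without the block its value was -0.126, and leaving out 1 library moved that to between -0.189 and -0.055.

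**Figure D4:**
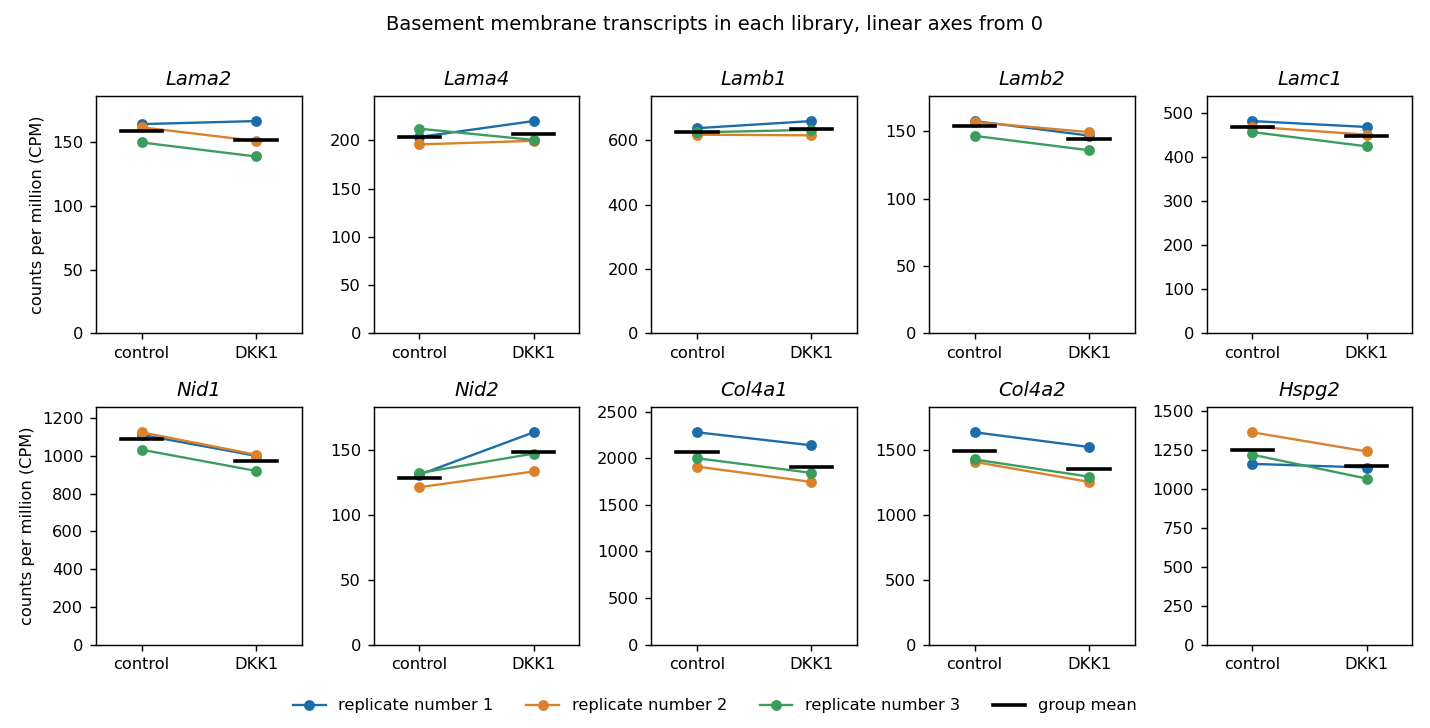
CPM of each gene in each library (y, linear from 0), control and DKK1 samples of the same replicate number joined by a line, black bars for group means (n = 3). Lines slope down in all 3 pairs for 6 genes and up in all 3 for Nid2. For Col4a1 and Col4a2 the line of replicate number 1 lies above the others.

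For 8 of the 10 genes the range over replicate numbers exceeded the mean difference between DKK1 and control. On the log2 scale the range of the 3 pair means was 0.27 for Col4a1 and 0.24 for Col4a2, against mean pair differences of -0.12 and -0.14. For Nid1 the range was 0.14 against -0.17, and for Nid2 0.20 against 0.20. The order of the libraries differed between genes: number 1 was the highest for both collagen IV chains, and number 2 for Hspg2 and Nid1. All 3 pairs went the same way for 7 of the 10 genes, 6 down and 1 up, where 41.7% of all tested genes had 3 pairs in 1 direction.

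Other genes of the basement membrane were examined as 6 lists, drawn up by role with earlier results of these data known. Of 58 genes, all tested, 4 were called without pairing, and 22 in the paired fit, 9 higher and 13 lower, where 0.895% and 9.42% of all tested genes were called. Of the 1481 genes at or above the mean CPM of Nid2, 27.9% were called in the paired fit. Among 5 other laminin chain genes 0 were called by edgeR in either fit, with paired adjusted p-values from 0.0964 (Lama1) upward and an unadjusted p under 0.05 for 1 without and 3 with pairing; with the GC and length trends also removed 1 was called, Lama1 (log2 fold change 0.405, adjusted p = 0.0491). Among the 4 other collagen IV chains Col4a5, the alpha5 chain, fell from 115.7 ± 3.48 to 98.5 ± 4.42 CPM (SD, n = 3; paired log2 fold change -0.236, SE 0.028, edgeR adjusted p = 0.000105; unpaired adjusted p = 0.0655). Col4a3, Col4a4 and Col4a6 had at most 9.0 CPM in control and were not called. Their paired log2 fold changes were -0.421, -0.541 and -0.215. An unadjusted edgeR p was under 0.05 for 1 of the 4 chains without and for all 4 with pairing.

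Of 17 further basement membrane components 6 were called in the paired fit, 5 lower and 1 higher, beside 9.42% of all tested genes. Without pairing 0 were called and 3 had an unadjusted edgeR p under 0.05. Col15a1, a collagen that bridges basement membranes to the tissue around them, fell from 20.6 ± 1.72 to 15.3 ± 1.80 CPM (log2 fold change -0.44, SE 0.062, edgeR adjusted p = 0.000363). Hmcn1 (hemicentin, -0.294), Tinagl1 (-0.175), Fbln2 (fibulin-2, -0.131) and Sparc, a collagen-binding glycoprotein (-0.099), also fell in the paired fit, with adjusted p-values of 0.00109 or less. Ntn1 (netrin-1) rose from 23.2 ± 1.59 to 27.1 ± 0.660 CPM (log2 fold change 0.213, SE 0.05, adjusted p = 0.0166). With the GC and length trends also removed these 6 were called and so was Agrn, which encodes the proteoglycan agrin (0.127, adjusted p = 0.0499).

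The next 12 genes encode products that fold, modify, export or cross-link collagens, collagen IV among them. In the paired fit 4 were called, 2 in each direction, beside 9.42% of all tested genes. Without pairing 0 were called and 2 had an unadjusted edgeR p under 0.05. Pxdn, the peroxidase that forms the sulfilimine cross-link of collagen IV (log2 fold change -0.104, edgeR adjusted p = 0.0158), and the collagen chaperone gene Serpinh1 (-0.06, adjusted p = 0.0333) were lower. P4ha1 (0.074, adjusted p = 0.0386) and P4hb (0.083, adjusted p = 0.00583), which encode subunits of prolyl 4-hydroxylase, were higher. With the GC and length trends also removed only P4hb of the 12 was called (adjusted p = 0.0129). Pxdn then had -0.073 (adjusted p = 0.0705), Serpinh1 -0.059 (adjusted p = 0.0565) and P4ha1 0.067 (adjusted p = 0.0754).

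Receptors for laminin and collagen IV split by gene. Itga1, the integrin alpha1 chain that binds collagen IV, fell from 70.8 ± 1.01 to 58.5 ± 2.04 CPM (SD, n = 3) and was called with and without pairing (unpaired log2 fold change -0.282, SE 0.04, edgeR adjusted p = 0.0183; paired adjusted p = 0.000129). Itga2, the alpha2 chain of another collagen receptor, went from 33.3 ± 6.20 to 44.2 ± 10.1 CPM and rose in the paired fit (log2 fold change 0.399, SE 0.042, adjusted p = 3.34e-05; unpaired adjusted p = 0.449). Dag1, which encodes the laminin and perlecan receptor dystroglycan, fell (-0.15, adjusted p = 0.000469), and the syndecan genes Sdc4 (0.225, adjusted p = 8.04e-05) and Sdc1 (0.125, adjusted p = 0.0113) rose in the paired fit. The remaining 8 of 13 receptor genes were not called in the paired fit, where 9.42% of all tested genes were called. With the GC and length trends also removed Itgb1, the integrin beta1 chain, was called (-0.072, adjusted p = 0.0229).

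Among proteases and their inhibitors 6 of 7 genes were called in the paired fit, beside 9.42% of all tested genes. Without pairing 3 genes were called, Mmp3, Timp1 and Timp3, beside 0.895% of all tested genes. Mmp3 (stromelysin-1), which degrades laminin, nidogen, perlecan and collagen IV, rose from 17.5 ± 2.29 to 39.6 ± 6.80 CPM (SD, n = 3; unpaired log2 fold change 1.18, SE 0.133, edgeR adjusted p = 0.00742). Mmp9, a gelatinase that also degrades collagen IV, measured 4.03, 3.75 and 14.9 CPM in control replicates 1, 2 and 3, against 13.5, 10.7 and 30.5 CPM with DKK1. Its groups overlapped, replicate 3 was the highest library of each, and it rose in the paired fit (log2 fold change 1.33, SE 0.113, adjusted p = 4.93e-06; unpaired adjusted p = 0.481). Timp1 rose (0.337, unpaired adjusted p = 0.0145), Timp3 fell (-0.222, unpaired adjusted p = 0.02), and Mmp14 (-0.108, adjusted p = 0.00195) and Timp2 (-0.164, adjusted p = 0.00138) fell in the paired fit. Mmp2 was the gene not called (-0.054, paired adjusted p = 0.476).

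**Figure D5:**
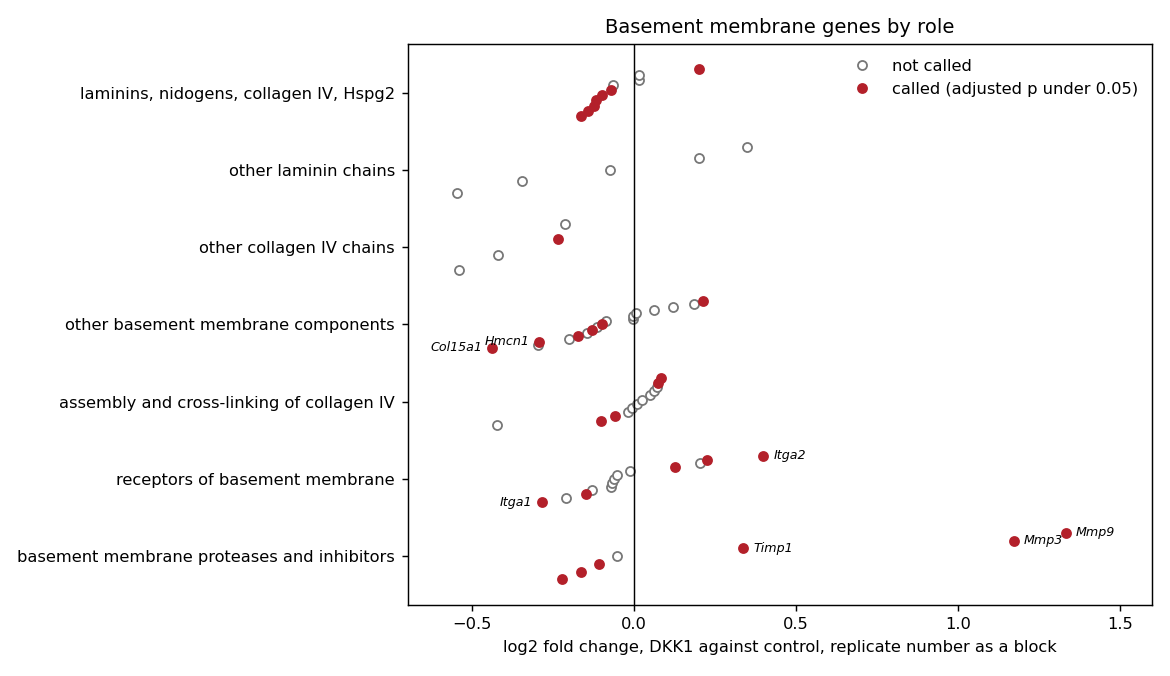
Paired log2 fold change, DKK1 against control (x), of the 10 genes (top line) and of the 6 lists of related genes, 1 point per gene, spread vertically by value only to part the points, filled red where called at an adjusted p under 0.05; called genes beyond 0.25 in either direction are named. The 10 genes lie between -0.165 and 0.20, while Mmp3 and Mmp9 exceed 1.

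Markers were checked for the label and for other cells that make basement membrane. All 7 fibroblast markers were detected, with a summed level of 10224.9 to 11726.0 CPM in control and 9632.8 to 11148.5 CPM in DKK1 libraries. Most of it was collagen: control means were 5939.5 CPM for Col1a1, 2958.4 for Col1a2 and 1392.5 for Col3a1. Dcn stood at 40.6 and Lum at 2.12 CPM in control. The 7 endothelial markers summed to 25.9 to 68.1 CPM in control and 23.3 to 67.7 CPM in DKK1 libraries, and the 7 epithelial markers to 25.1 to 73.8 and 22.6 to 79.7 CPM. The 5 mesothelial markers summed to 23.3 to 53.5 and 24.6 to 55.3 CPM. Of these 3 lists 0 genes were at 0 in all libraries, and 0 had an edgeR p under 0.05, adjusted or not, in either fit. The 6 pericyte markers summed to 402.6 to 426.9 and 380.6 to 404.0 CPM, most of it Pdgfrb (356.3 ± 4.28 CPM in control). The 6 leukocyte markers summed to 395.2 to 794.8 and 436.9 to 835.1 CPM, most of it Lyz2 (479.3 ± 190.4 CPM in control). In the paired fit 3 genes of each of these lists were called. Of the pericyte list Cspg4 (-0.465) and Pdgfrb (-0.112) fell and Kcnj8 (0.651) rose, and of the leukocyte list Itgam (1.07) and Adgre1 (0.545) rose and Csf1r (-0.252) fell, as paired log2 fold changes with edgeR adjusted p-values of 0.0364 or less. The part of the leukocyte markers in the rise of Mmp9 was not tested. The 5 smooth muscle markers summed to 7244.0 to 8045.0 CPM in control and 6085.6 to 7129.9 CPM in DKK1 libraries. All 5 were called lower in the paired fit: Des (-0.454), Myh11 (-0.299), Actg2 (-0.272), Acta2 (-0.213) and Cnn1 (-0.168). Without pairing 1 of them was called and 4 had an unadjusted edgeR p under 0.05. Of the fibroblast list 5 of 7 were called in the paired fit: Col1a1 (-0.103), Col1a2 (-0.125) and Thy1 (-0.125) fell, and Pdgfra (0.267) and Dcn (0.616) rose. Of all tested genes 9.42% were called in that fit. The part of these cell type markers in the falls of Col4a1, Col4a2, Nid1, Lamb2, Lamc1 and Hspg2 was not tested.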

How the data were processed

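RNA of 3 control and 3 DKK1-treated samples was sequenced. The authors deposited RSEM expected counts per gene, 1 column per sample, not scaled. Per the submitters' processing notes, STAR, RSEM and edgeR 4.2.1 and the build GRCm38 (mm10) were used; annotation release, strand setting and filters are not given in the sources used here. Symbols came from a table of Ensembl identifiers (98.8% matched), and positions, lengths and GC contents from GENCODE M21 (GRCm38), which holds 98.7% of the table's transcript identifiers. All 10 symbols matched. Promoter windows came from RefSeq, GRCm38.p6, which listed 7 of the 10 genes.

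The values were rounded to whole counts; tests used edgeR 4.0.16 under R 4.3.3 (filterByExpr with a minimum count of 10, TMM scaling, glmQLFit and glmQLFTest, two-sided, Benjamini-Hochberg adjustment over 14635 genes, called under 0.05). A standard error is the size of the log2 fold change over the root of its F statistic. CPM uses whole library totals, and means are given with the SD over 3 libraries. A floor of 3 counts is 0.0864 CPM in the deepest library and 0.133 in the shallowest; these floors cover counting error only, while the 95% intervals of fold changes come from the edgeR fit and include the spread between samples. No library was a copy of another: within-group chi-square statistics were 4.90 to 7.63 per degree of freedom. The replicate numbers in the titles were taken to pair the samples, since deviations from the group means correlated across genes by 0.274, 0.230 and 0.405 for numbers 1, 2 and 3; with this replicate block the biological coefficient of variation went from 6.99% to 2.30%. The test was tried on simulated data. Alternatives were DESeq2 1.42.0, limma-voom (limma 3.58.1), other scalings and filters, removal of GC and length trends, unrounded counts, equal depth and left-out samples; pairing under other scalings and in limma-voom was added after seeing the data. The genes and lists were chosen with earlier results of these data known. All 10 genes are named, and of the related lists the genes called in either fit. Lama1, Agrn, Itgb1, Mmp2, Col4a3, Col4a4 and Col4a6 are named too, chosen after their values were seen. The uncalled genes otherwise enter by count, and 1 further gene was left out of the lists for a reason unrelated to its values and is not reported here.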

Additional observations from a re-analysis of the deposited data

How the results depend on the processing

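Without pairing, 0 of the 10 genes were called in any of the 16 unpaired fits, which include the 6 that each left out 1 sample. With the replicate block 7 were called; the block gave 7 with DESeq2 size factors and with limma-voom, 6 with library totals only, 4 after GC and length correction and 4 in DESeq2. Leaving out 1 replicate number with the block gave 4 to 7 calls. Nid1, Nid2, Col4a1 and Col4a2 were called in all 9 fits with the block, Hspg2 in 5, Lamb2 and Lamc1 in 4 each and Lama2 in 1, without replicate number 1; Lama4 and Lamb1 were called in 0. With 1 number left out, 2 samples a group remained and the spread was pooled over genes.

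Over all genes the 131 calls became 1379 with the replicate block, 1374 with library totals and the block, 1381 with DESeq2 size factors and the block, 1391 with limma-voom and the block, 1307 under the block after GC and length correction, 329 without a low-count filter, 289 in DESeq2 and 551 in DESeq2 with the block. Leaving out 1 sample gave 36 to 139 calls, and leaving out 1 number with the block gave 612, 1059 and 1312. Of 240 alternative log2 fold changes of the 10 genes 4 changed sign, all of genes not called and all with samples left out: Lama4 ranged from -0.033 to 0.039 with 1 sample left out and from -0.03 to 0.062 with the block and 1 number left out, and Lamb1 from -0.013 to 0.035. The cause was not tested. Under other scalings the median of all genes lay between -0.007 and 0.004. The smallest count of these genes was 2952; equal depth was tried without the block only.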

Other observations

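RefSeq promoter windows of 300 bases were listed for Hspg2, Col4a1, Col4a2, Lamb2, Lama2, Lamb1 and Nid1. The GC box GGGCGG, counted on both strands, occurred 5 times in the Hspg2 window, 3 times in that of Col4a2, 2 times in that of Lamb1, 1 time each in those of Col4a1, Lama2 and Nid1 and 0 times in that of Lamb2. The Lamb2 window had the lowest GC content, 44.0%, and the Col4a1 window the highest, 74.0%. The TCF/LEF core ATCAAAG, also counted on both strands, occurred in 0 of these 7 windows and in 3.73% of all 32851 windows, which says only that these letters are not in these windows.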
